A study of Rattus norvegicus with 8 samples.

Results

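E2f3, Cdkn1b, Atxn1 and Mapk14 are genes whose mRNAs were described, in work on other cells, as repressed by Pumilio proteins through elements in their 3′ untranslated regions. They were chosen by name from that earlier work and are 4 of the 17379 genes measured in cultured rat sensory neurons. Dorsal root ganglion neurons of E15 rat embryos were grown for 7 days in microfluidic chambers, devices that separate axons from cell bodies. Lentivirus carrying a short hairpin RNA was added when the cells were plated. The groups, with 2 libraries each, were the axonal compartment with shPum2 (the hairpin against Pum2), the axonal compartment with shControl (the control hairpin), the somatic compartment with shPum2 and the somatic compartment with shControl. All cultures carried a lentiviral hairpin, so no untransduced cells enter the comparisons. The labels name cell bodies and axons together as the source of the somatic RNA, and name a standard library kit for somatic and an ultra-low input kit for axonal RNA. Kit and compartment therefore cannot be told apart. The labels do not say whether replicates came from separate cultures, so p-values measure the spread between these libraries, which may be technical.

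Pumilio proteins bind short sequence elements in the 3′ untranslated regions of mRNAs. They are known to shorten poly(A) tails through the CCR4-NOT deadenylase and to reduce translation. In neurons they are known for roles in dendrites, excitability and the placing of mRNAs between cell body and processes. E2f3 encodes a transcription factor that drives genes of DNA synthesis, and its repression by Pumilio proteins was described in human cells. Cdkn1b encodes p27, an inhibitor of cyclin-dependent kinases that is kept at a high level in many cells that have left the cell cycle. Atxn1 encodes ataxin 1, a partner of the repressor Capicua that carries the expanded glutamine tract of a spinocerebellar ataxia. Mapk14 encodes p38 alpha, a stress-activated kinase, and was described as a target of PUM2 in human stem cells.

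For Cdkn1b, work in human cells tied Pumilio binding to access of miR-221 and miR-222 to the same untranslated region. The rat mature sequences are shown for their shared seed, bases 2 to 8 from the 5′ end, which is printed in capitals. They are taken from RefSeq, build GRCr8, plus strand, at chrX:6023246-6023268 for miR-221-3p and at chrX:6022682-6022702 for miR-222-3p.
rno-miR-221-3p: aGCUACAUugucugcuggguuuc
rno-miR-222-3p: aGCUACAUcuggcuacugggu
Both carry the seed GCUACAU. Their precursor genes Mir221 and Mir222 are listed in the files with 0 counts over all 8 libraries. These libraries did not measure mature miRNAs.

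Library totals were 11641980 and 16131627 estimated counts in axonal shPum2 libraries and 11686689 and 13533408 in axonal shControl libraries. They were 21254538 and 25821800 in somatic shPum2 libraries and 16725902 and 23176692 in somatic shControl libraries. Between 9540 and 10728 genes had a count in an axonal library and between 14035 and 14260 in a somatic library. A count of 0 allows a level of up to 3 counts, which is 0.186 to 0.258 CPM (counts scaled to the library total) in axonal and 0.116 to 0.179 CPM in somatic libraries, for counting error only. The 13 sensory neuron markers in the files all had counts in all 8 libraries. Of the Schwann cell and satellite glia markers, Cdh19 was at 0 in all 4 axonal libraries. Summed macrophage and blood cell markers stood at 4653 and 259 CPM in axonal shPum2 libraries and 2328 and 3015 CPM in axonal shControl libraries, against 39.0 to 157.5 CPM in somatic libraries. Replicate 1 of somatic shPum2 stood apart: its 11 fibroblast markers summed to 10460 CPM, against 2597 to 4508 CPM in the other somatic libraries.

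Pum2 was examined first as the target of the hairpin. It stood at 38.2 and 36.5 CPM in somatic shPum2 libraries and at 164 and 160 CPM in somatic shControl libraries. Both knockdown libraries lay below both control libraries. Somatic Pum2 fell, with a log2 change of -2.13 (SE 0.07, adjusted p = 0.0247, edgeR quasi-likelihood test with Benjamini-Hochberg adjustment). The estimate was -2.12 or -2.13 with either shControl library left out, but it then missed the threshold of 0.05. In the axonal compartment Pum2 stood at 1.46 and 7.07 CPM with shPum2 and at 3.25 and 0.443 CPM with shControl. These groups overlapped, and the axonal log2 difference of 1.25 (SE 2.37) was -0.72 without replicate 2 of shPum2. Axonal Pum2 mRNA therefore does not check the hairpin labels there.

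All 4 genes were present in somatic RNA, in an order shared by both hairpins: Cdkn1b, Mapk14, E2f3 and Atxn1. Levels are given in TPM, the authors' transcript share scaled by length, so that genes can be compared. Each gene was represented by 1 RefSeq transcript. Atxn1 had estimated counts that were not whole in any library, so some of its reads were shared with another transcript and its values are uncertain. In bulk samples, fewer cells of a type and less RNA per cell cannot be told apart.

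Cdkn1b, the p27 gene, had the highest level of the 4 in somatic libraries. It stood at 84.3 and 85.9 TPM with shPum2 and at 82.5 and 80.8 TPM with shControl. The somatic shPum2 libraries lay just above the somatic shControl libraries. The shPum2 mean of 85.1 ± 1.2 TPM exceeded the level of 84.5% of the 14674 genes with a count in that group, and the shControl mean of 81.6 ± 1.2 TPM that of 83.7% of 14536 genes (SD, n = 2 each). In axonal libraries Cdkn1b was low, at 0.130 and 0.922 TPM with shPum2 and at 0.457 and 2.32 TPM with shControl. The axonal groups overlapped, and replicate 2 was the higher library with either hairpin.

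Mapk14, the p38 alpha gene, was second in somatic libraries and first in axonal libraries. Its somatic level was 34.9 and 25.2 TPM with shPum2 and 26.5 and 25.6 TPM with shControl. Replicate 1 of shPum2 was above the other 3 somatic libraries, and replicate 2 was below them. Its axonal level was 1.30 and 3.77 TPM with shPum2 and 1.51 and 5.18 TPM with shControl. Again replicate 2 was the higher library with either hairpin, and the groups overlapped.

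E2f3 followed Mapk14 in somatic libraries, at 17.0 and 15.5 TPM with shPum2 and at 15.9 and 16.1 TPM with shControl. The 2 control values lay between the 2 knockdown values. In axonal libraries E2f3 had 4 and 42 counts with shPum2 and 1 and 0 counts with shControl, or 0.149 and 0.949 TPM against 0.0327 and 0 TPM. The axonal groups did not overlap, and 91.3% of the shPum2 counts came from replicate 2. Of 8226 genes with at least 10 CPM in both somatic shControl libraries, 312 (3.79%), E2f3 among them, had at most 1 count in the axonal shControl group. In the axonal shPum2 group 227 (2.76%) did, and E2f3 was not among those. So low an axonal count was thus uncommon among these genes but not confined to E2f3. The shares were taken over all somatic levels from 10 CPM up, and none was computed for genes at the level of E2f3.

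Atxn1 was the lowest of the 4 in somatic libraries, at 3.85 and 2.93 TPM with shPum2 and at 3.83 and 3.06 TPM with shControl. Replicate 1 was the higher library with either hairpin. In axonal libraries it stood at 0.301 and 0.105 TPM with shPum2 and at 0.111 and 0.102 TPM with shControl, from 8 to 20 counts a library. Here the ranges overlapped, with 1 knockdown library above the others.

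In somatic RNA no gene's range over its libraries overlapped that of its neighbour in the order of TPM, with either hairpin. The ratios of somatic group means, with shPum2 and with shControl, were 2.83 and 3.13 for Cdkn1b over Mapk14, 1.85 and 1.63 for Mapk14 over E2f3, and 4.79 and 4.66 for E2f3 over Atxn1. In axonal RNA with shPum2, Mapk14 was above E2f3 without overlap, while E2f3, Cdkn1b and Atxn1 overlapped as neighbours. In axonal RNA with shControl, Mapk14 and Cdkn1b overlapped, and Atxn1 and then E2f3 followed without overlap. The rank of the means was the same in CPM.

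**Figure D1:**
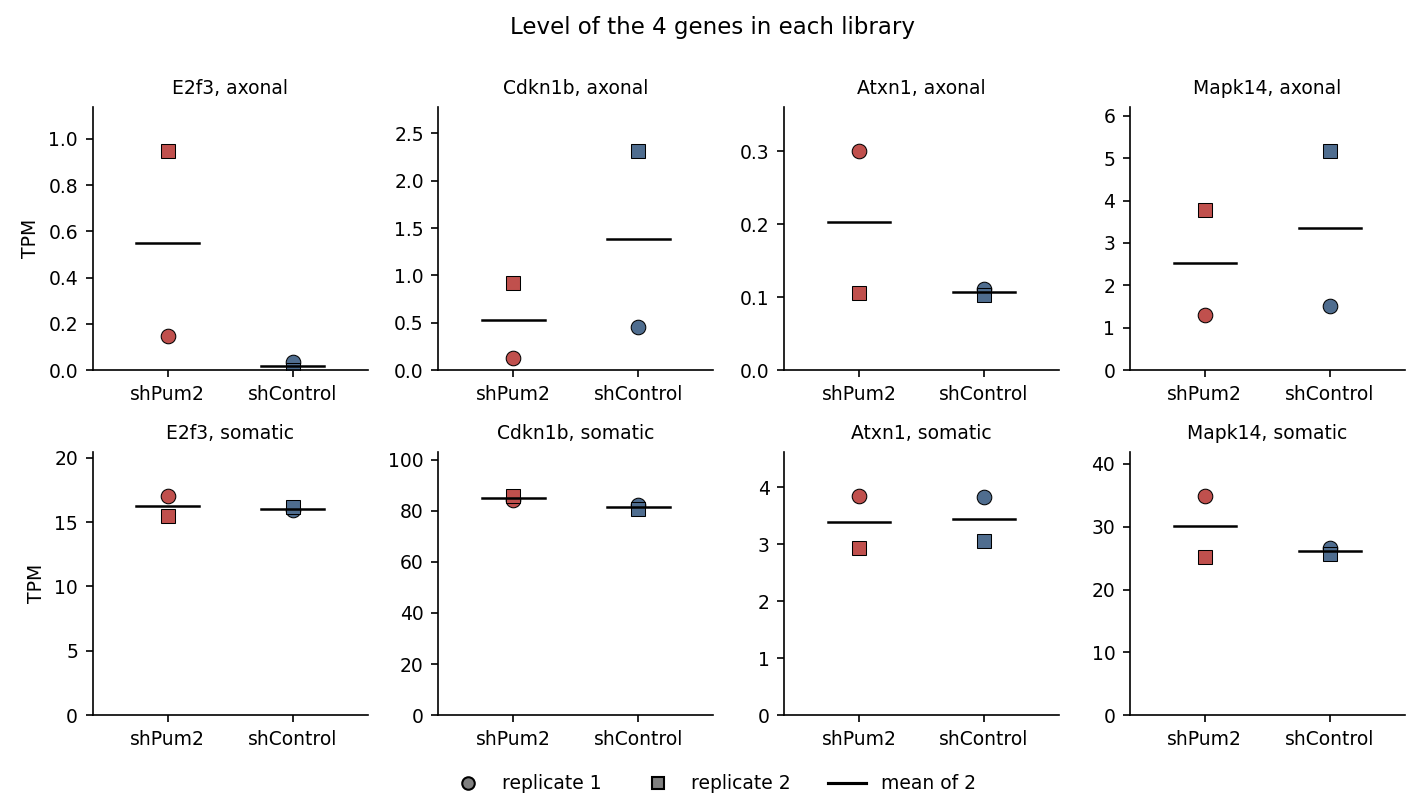
Level in TPM (y axes, a scale for each panel) of E2f3, Cdkn1b, Atxn1 and Mapk14 in axonal (top) and somatic (bottom) libraries with shPum2 and shControl; circles are replicate 1, squares replicate 2 and lines the mean of 2 libraries. Somatic means were nearly level between hairpins, from 3.39 TPM for Atxn1 to 85.1 TPM for Cdkn1b with shPum2, while the axonal values of E2f3, Cdkn1b and Mapk14 differed severalfold between replicates.

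Knockdown of Pum2 was compared with the control hairpin to ask whether mRNAs described as Pumilio targets change in amount. None of the 4 passed the test in somatic RNA. Their log2 changes lay between -0.03 and 0.19, beside -2.13 for Pum2 itself. Of the 12346 somatic genes tested, 1 was called, Pum2, which is 0.0081% of them. Before adjustment 74 genes had a p below 0.05, whereas 617 would have if no gene changed and the tests were calibrated, and DESeq2 called 2. Counts of calls among the 4 genes are read against that background.

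Somatic Cdkn1b differed by a log2 change of 0.05 (SE 0.08, 95% interval -0.17 to 0.27), a ratio of 1.04 with an interval of 0.891 to 1.21. E2f3 differed by 0.01 (SE 0.13, interval -0.33 to 0.35), a ratio of 1.01 with an interval of 0.797 to 1.27. For these cell-cycle genes the intervals therefore hold no difference as well as modest rises and falls. Atxn1 differed by -0.03 (SE 0.22, interval -0.60 to 0.53), a ratio of 0.978 with an interval of 0.661 to 1.45. Mapk14 differed by 0.19 (SE 0.15, interval -0.20 to 0.59), a ratio of 1.14 with an interval of 0.870 to 1.50. The adjusted p was 0.9997 for each of them (edgeR quasi-likelihood test, Benjamini-Hochberg).

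Cdkn1b was the single gene of the 4 whose somatic CPM did not overlap between hairpins, with shPum2 higher. Over all somatic genes tested, 11.5% did not overlap with shPum2 higher and 24.5% in either direction. The somatic difference of Mapk14 rested on replicate 1 of shPum2, the library with high fibroblast markers: it was -0.01 (interval -0.29 to 0.26) without that library and 0.37 (interval 0.08 to 0.66, adjusted p = 0.2636, edgeR) without replicate 2 of shPum2. The part of other cell types in the Mapk14 value was not tested.

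In the authors' deposited table for the somatic compartment, the log2 change was 0.04 (SE 0.10) for Cdkn1b, 0.01 (SE 0.12) for E2f3, -0.01 (SE 0.11) for Atxn1 and 0.12 (SE 0.12) for Mapk14. All 4 had an adjusted p of 0.9999 in that authors' deposited table. Pum2 had a log2 change of -1.71 (SE 0.09) there.

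In axonal RNA, Cdkn1b and Mapk14 passed the expression filter, and E2f3 and Atxn1 did not. Neither tested gene was called, nor was any of the 8517 axonal genes tested, so 0% were called (edgeR). Before adjustment 257 axonal genes had a p below 0.05, beside 426 if no gene changed and the tests were calibrated, and DESeq2 called 159. Axonal Cdkn1b differed by a log2 change of -1.15 (SE 2.23, 95% interval -6.25 to 3.96) and Mapk14 by -0.25 (SE 1.94, interval -4.70 to 4.20), each at adjusted p = 0.9998 (edgeR quasi-likelihood test, Benjamini-Hochberg). These intervals span more than 8 log2 units, so the axonal libraries bound neither gene's change closely. In the fit without an expression filter, axonal E2f3 differed by 4.98 (SE 4.13, interval -3.12 to 13.08) and Atxn1 by 0.69 (SE 3.46, interval -6.09 to 7.46), each with an adjusted p of 0.9997 (edgeR). Set against the single count in shControl, the 46 axonal E2f3 counts in shPum2 gave a CPM ratio of 41.8, with an interval for counting error only of 7.13 to 1685. Spread between libraries is not part of that interval. Over the axonal genes tested, 27.8% had groups that did not overlap in CPM, and 15.8% with shPum2 higher, the direction of E2f3. E2f3 was below the filter and so not among those genes, and no share was computed for genes with counts as low. The authors' deposited table for axons gave a log2 change of 3.03 (SE 2.27) for E2f3, -0.80 (SE 1.94) for Cdkn1b, 0.43 (SE 2.19) for Atxn1 and -0.14 (SE 1.46) for Mapk14, with no adjusted p for E2f3 and Atxn1.

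**Figure D2:**
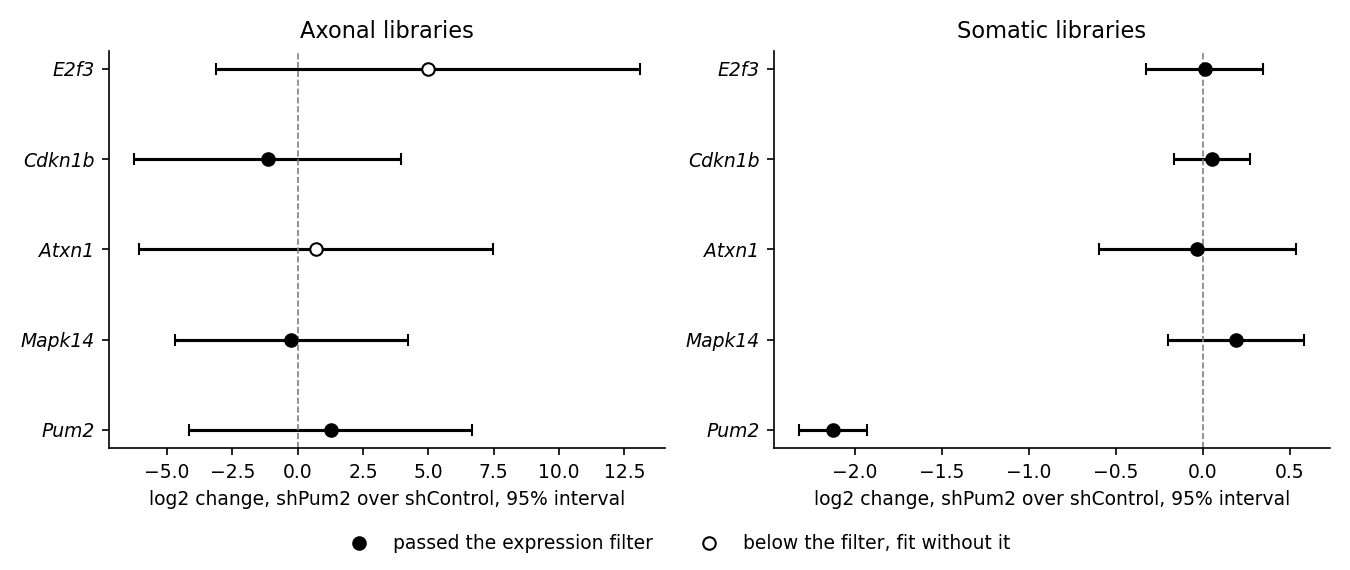
Log2 change of shPum2 over shControl (x axes, with 95% intervals from edgeR, on different scales) for the 4 genes and Pum2 in axonal (left) and somatic (right) libraries; open circles are genes below the axonal expression filter, from the fit without it. The somatic intervals of the 4 genes include 0 and lie within -0.60 to 0.59, while Pum2 lies at -2.13; the axonal intervals all include 0 and reach 13.08.

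The knockdown difference in axons was then compared with that in somatic RNA in a fit of all 8 libraries. E2f3 and Atxn1 did not pass the filter in axonal libraries alone. E2f3 entered this fit only through its somatic counts, and Atxn1 entered it with 8 to 20 counts in an axonal library. None of the 4 genes was called, nor was any of the 12337 genes tested (0%, edgeR), and DESeq2 called 609. Before adjustment 964 genes had a p below 0.05, beside 617 if no gene changed and the tests were calibrated. E2f3 had the largest estimate of the 4, a difference of 5.24 log2 units between the axonal and somatic changes (SE 2.30, interval -0.26 to 10.74, adjusted p = 0.5723). It was 2.50 without replicate 2 of axonal shPum2 and 9.34 without replicate 1 of axonal shControl, and was not called in either fit. The estimate was -1.09 (SE 1.78) for Cdkn1b, 0.76 (SE 1.24) for Atxn1 and -0.34 (SE 1.43) for Mapk14, with adjusted p-values between 0.995 and 0.9999 (edgeR quasi-likelihood test, Benjamini-Hochberg). A different effect of the hairpin in the 2 compartments was not detectable for these genes at this depth and spread.

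Axonal RNA was compared with somatic RNA for each hairpin. With shControl, E2f3 was called lower in axonal RNA and the other 3 genes did not pass the test. E2f3 passed the expression filter of this fit of all 8 libraries only through its somatic counts. With shPum2, none of the 4 was called. Of the 12337 genes tested, 24.7% were called with shPum2, 16.2% lower and 8.45% higher in axons, and 27.9% with shControl, 18.5% lower and 9.41% higher in axons. The median log2 difference over all genes was -0.64 with shPum2 and -0.75 with shControl under TMM scaling (edgeR's library scaling), and -2.03 and -2.35 under scaling by total counts. Values for the 4 genes are given beside those medians.

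E2f3 differed between axonal and somatic RNA by a log2 change of -1.83 (SE 1.46, interval -5.31 to 1.65, adjusted p = 0.4288) with shPum2 and of -7.07 (SE 1.96, interval -11.76 to -2.38, adjusted p = 0.0389) with shControl (edgeR, Benjamini-Hochberg). The shPum2 value was -4.54 (adjusted p = 0.0648) without replicate 2 of axonal shPum2 and -0.75 (adjusted p = 0.56) without replicate 1 (edgeR). The shControl call rests on 1 axonal count against 715 somatic counts, a CPM ratio of 0.00221 with an interval for counting error only of 5.595e-05 to 0.0124. It was lost, with adjusted p-values of 0.0509 to 0.141, when any of the 6 libraries other than the axonal shPum2 ones was left out. The values with shPum2 and with shControl are not shown to differ, as the comparison of the knockdown effects above did not pass.

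Cdkn1b had the lowest axonal share of its somatic level with shPum2. Its log2 difference between axonal and somatic RNA was -4.27 (SE 1.43, interval -7.70 to -0.85, adjusted p = 0.0751) with shPum2 and -3.18 (SE 1.36, interval -6.43 to 0.07, adjusted p = 0.1263) with shControl (edgeR). In CPM, axonal counts were 0.0168 of somatic counts with shPum2 (interval 0.0119 to 0.0231, counting error only) and 0.0392 with shControl (interval 0.0308 to 0.0491). Without replicate 2 of axonal shPum2 the difference with shPum2 was -7.12 (adjusted p = 0.0322, edgeR), and under scaling by total counts Cdkn1b was called lower in axons with both hairpins. DESeq2 called it with shPum2, and edgeR called it with shControl when either axonal shPum2 library was left out.

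Atxn1 differed by -1.52 (SE 0.89, interval -3.65 to 0.61, adjusted p = 0.2767) with shPum2 and by -2.29 (SE 0.92, interval -4.49 to -0.09, adjusted p = 0.1086) with shControl (edgeR). With shControl it was called lower in axons by DESeq2, under scaling by total counts, and without either axonal shPum2 library. Mapk14, the highest of the 4 in axons, differed by -0.59 (SE 1.02, interval -3.03 to 1.84, adjusted p = 0.743) with shPum2 and by -0.26 (SE 1.02, interval -2.68 to 2.17, adjusted p = 0.8747) with shControl (edgeR). Mapk14 thus lay close to the median of all genes, above 50.7% of them with shPum2 and 55.5% with shControl. Its shControl difference was 0.08 with DESeq2's size factors, so its direction depended on the scaling.

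**Figure D3:**
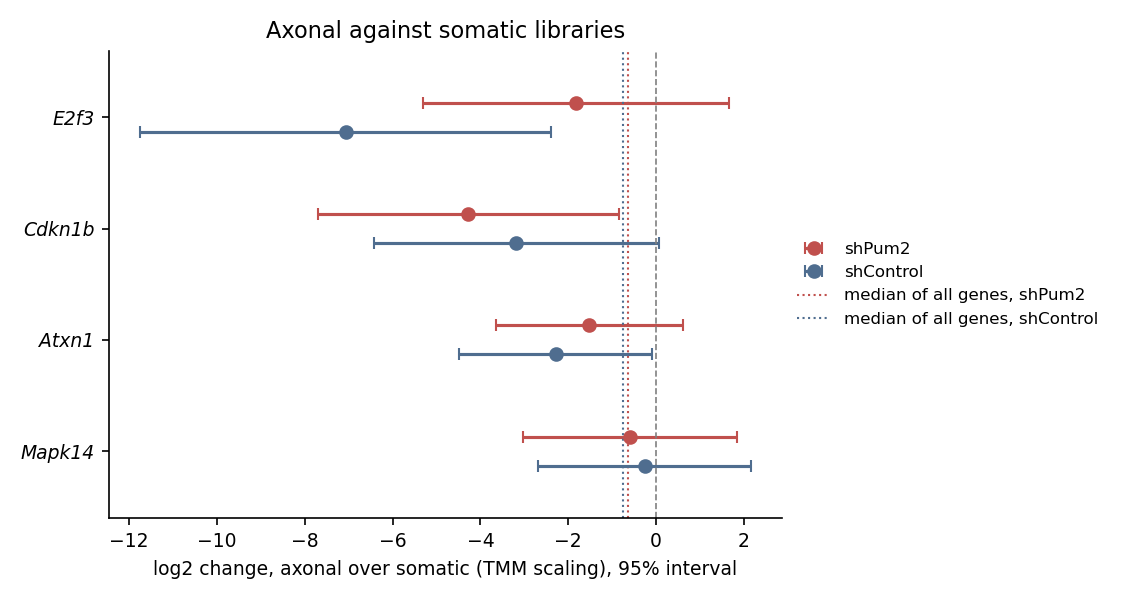
Log2 change of axonal over somatic RNA (x axis, TMM scaling, with 95% intervals from edgeR) for the 4 genes with shPum2 and with shControl; dotted lines are the medians of all 12337 genes, -0.64 with shPum2 and -0.75 with shControl. The shControl value of E2f3, at -7.07, was the one called. It rests on 1 axonal count against 715 somatic counts, and E2f3 passed the filter only through its somatic counts. The values of Mapk14, -0.59 and -0.26, lie beside the medians.

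The genes around these 4 were described by lists. No gene of the 8 pathway lists was called in somatic RNA apart from Pum2. Of 8 other genes described elsewhere as Pumilio targets, 8 were tested in somatic RNA, 3 had a positive difference and the median log2 difference was -0.07, beside 0.01 over all genes. Gria2, an AMPA receptor subunit, stood at 97.4 and 104 CPM with shPum2 and at 124 and 117 CPM with shControl, a log2 difference of -0.27 (SE 0.09, adjusted p = 0.9997, edgeR). Scn8a, a sodium channel, differed by -0.18 (SE 0.12). The 13 sensory neuron markers had a somatic median of -0.12 with 11 negative, among them Calca at -0.45 (SE 0.12), and a median of -0.01 without replicate 1 of shPum2. Their part in the Gria2 and Scn8a values was not tested. The 15 tested genes of the CCR4-NOT deadenylase and its associated factors had a somatic median of 0.01, and the 8 Pumilio proteins and partners a median of 0.04.

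The cell-cycle genes downstream of E2f3 and Cdkn1b had positive somatic differences that rested on 1 library. All 14 tested E2F target genes of S phase had a positive log2 difference with a median of 0.64, and none was called. Pcna, the sliding clamp of DNA replication, stood at 52.0 and 31.6 CPM with shPum2 and at 30.8 and 31.9 CPM with shControl. Replicate 1 of shPum2 was high and the other 3 libraries were alike. Mcm2, of the replicative helicase, stood at 26.8 and 11.1 CPM with shPum2 and at 13.5 and 9.67 CPM with shControl. Without replicate 1 of shPum2 the median of the list was -0.28, with 1 of 14 genes positive. That fit set replicate 2 of shPum2 against both shControl libraries, which were not alike. Summed markers of dividing cells were 38.5 CPM in replicate 1 of shControl and 22.3 CPM in its replicate 2. They were 23.1 CPM in replicate 2 of shPum2. The negative median therefore depends in part on replicate 1 of shControl. In replicate 1 of shPum2 the summed markers of dividing cells were 84.1 CPM, and those of fibroblasts were also highest. The part of both marker sets in the result was not tested, and the dividing cell list shares Cdk1 with the S phase list.

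Of the 16 Cdkn1b partners and inhibitors of cyclin-dependent kinases, 12 had a positive and 4 a negative somatic difference with all 4 libraries, with a median of 0.49. Without replicate 1 of shPum2 the median was -0.11, with 7 of 16 positive. Ccnd1, cyclin D1, stood at 45.9 and 13.7 CPM with shPum2 and at 16.9 and 9.15 CPM with shControl. Replicate 1 of shPum2 was again the high library, and the groups overlapped. Among the 9 tested E2F and pocket protein genes the median was 0.11, and E2f1 stood at 17.4 and 16.5 CPM with shPum2 and at 14.3 and 12.8 CPM with shControl. E2f1 did not overlap between hairpins, with a log2 difference of 0.31 (SE 0.14, adjusted p = 0.9997, edgeR). It was named for the smallest unadjusted p of the list, and 11.5% of all somatic genes tested did not overlap with shPum2 higher.

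Around Atxn1 and Mapk14 the list medians lay near 0 in somatic RNA. The 7 tested Atxn1 partners and Capicua targets had a median of -0.02, with Etv4, a transcription factor gene repressed by Capicua, at -0.15 (SE 0.08) and Spry4, an inhibitor of growth factor signalling, at -0.26 (SE 0.20). The 22 genes of the p38 pathway had a median of 0.08, and of -0.09 without replicate 1 of shPum2. Map2k4, a kinase upstream of p38, stood at 48.1 and 48.1 CPM with shPum2 and at 41.3 and 41.5 CPM with shControl. Its groups did not overlap, with a log2 difference of 0.21 (SE 0.09, adjusted p = 0.9997, edgeR). Mknk1, a kinase that phosphorylates the initiation factor eIF4E, stood at 10.1 and 5.69 CPM with shPum2 and at 5.14 and 4.88 CPM with shControl, a difference of 0.63 (SE 0.32). Map2k6, another kinase upstream of p38, stood at 9.50 and 8.13 CPM with shPum2 and at 12.5 and 10.2 CPM with shControl, a difference of -0.38 (SE 0.19). Neither overlapped between hairpins, and both had an adjusted p of 0.9997 (edgeR). Map2k4, Mknk1 and Map2k6 were named for the smallest unadjusted p of the list. Over all somatic genes tested, 24.5% did not overlap in either direction.

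**Figure D4:**
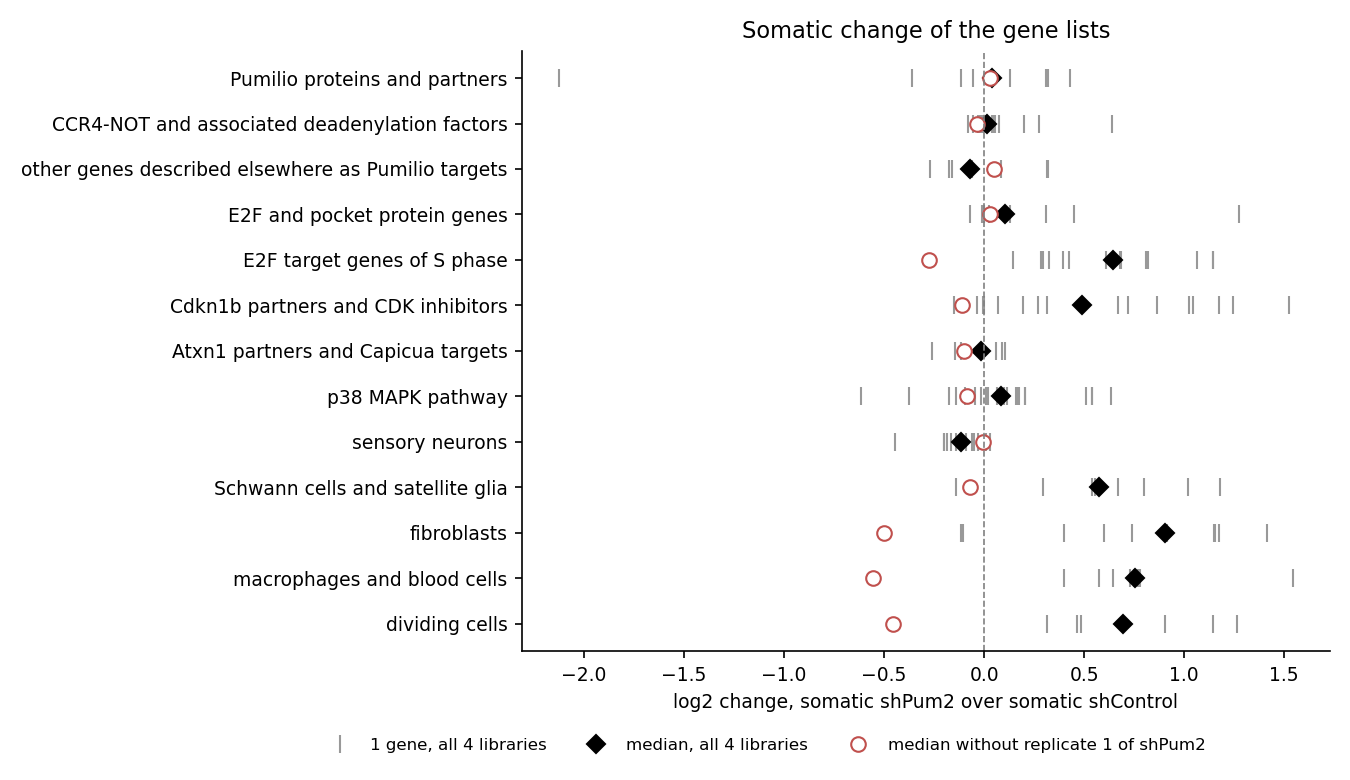
Log2 change of somatic shPum2 over somatic shControl (x axis) for the genes of 8 pathway lists and 5 marker lists (rows); ticks are genes and filled diamonds list medians from all 4 libraries, open circles medians without replicate 1 of shPum2. Medians that were above 0 with all 4 libraries move below 0 without that library in the S phase list (0.64 and -0.28), the Cdkn1b partners (0.49 and -0.11) and the fibroblast markers (0.91 and -0.50), among others. The open circles set replicate 2 of shPum2 against both shControl libraries. Summed fibroblast markers were 4508 CPM in replicate 1 of shControl, 2597 CPM in its replicate 2 and 2619 CPM in replicate 2 of shPum2.

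No list gene was called in the axonal knockdown comparison. The axonal medians were -1.25 for the 13 tested S phase genes, -0.43 for 15 p38 pathway genes, -0.42 for 15 Cdkn1b partners and inhibitors, 0.33 for 7 E2F and pocket protein genes, 0.63 for 7 Atxn1 partners and Capicua targets, 0.43 for 7 other described Pumilio targets, 1.25 for 7 Pumilio proteins and partners and -0.43 for 14 CCR4-NOT and associated factors, beside -0.05 over all axonal genes. Between compartments some list genes were called. Of the 16 Cdkn1b partners and inhibitors, 2 were higher and 1 lower in axons with shPum2, and 4 were higher and none lower with shControl, beside 8.45% of all genes called higher with shPum2 and 9.41% with shControl. Under scaling by total counts none was higher and 3 were lower with shPum2, and 2 were higher and 2 lower with shControl, so the list's direction depended on the scaling. Cks1b, a small protein that helps mark p27 for degradation, stood at 46.6 and 70.4 CPM in axonal and 32.6 and 29.9 CPM in somatic libraries with shPum2. With shControl Cks1b stood at 96.3 and 176 CPM in axonal and 26.0 and 28.1 CPM in somatic libraries. Its axonal libraries lay above its somatic libraries with both hairpins, with TMM-scaled log2 changes of 2.53 (SE 0.62, adjusted p = 0.0288) with shPum2 and 3.90 (SE 0.65, adjusted p = 0.0136) with shControl (edgeR, Benjamini-Hochberg). With shPum2 it was not among the genes called under scaling by total counts. Etv5, a Capicua target, was lower in axons, by log2 changes of -3.86 (SE 0.74, adjusted p = 0.0193) with shPum2 and -5.72 (SE 0.82, adjusted p = 0.0090) with shControl (edgeR). Trim2, of a ubiquitin ligase family with Pumilio partners, was lower by -3.29 (SE 0.46, adjusted p = 0.0093) with shPum2 and -3.58 (SE 0.47, adjusted p = 0.0069) with shControl (edgeR). All compartment calls with a hairpin were lost when either somatic library of that hairpin was left out. The summed macrophage and blood cell markers given above were higher in all 4 axonal libraries than in the somatic ones, though single markers did not all follow. The part of these markers in the list values was not tested.

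The genes whose pattern over the 8 libraries was most like each of the 4 were found by Pearson's r of log2(CPM + 1) among 11601 genes. They were Pde4d, Slc22a15 and Hapstr1 for E2f3 (r = 0.999 to 0.997), Zmynd8, Rab14 and Pgk1 for Cdkn1b (r = 0.999 to 0.998), Col11a2, Zfp507 and Dbt for Atxn1 (r = 0.999 to 0.998) and Rpl3, Virma and Hnrnpul1 for Mapk14 (r = 0.995 to 0.989). The 8 points share 2 compartments and 2 library kits, and the coefficients mostly follow the step between them.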

How the data were processed

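RNA of 8 libraries, 2 in each of 4 groups, was analysed from processed values. The authors' deposited file of each library gives estimated counts per RefSeq transcript, from kallisto per the submitters' processing notes, and TPM, per the file headers. Their notes name build Rnor_6.0 and DESeq2, and no versions. The authors' 2 deposited comparison tables hold, per the file headers, a normalised mean signal for each gene, log2 fold changes and their SE, a test score, and raw and adjusted p-values. Their direction was read as shPum2 over shControl from somatic Pum2.

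Of 18321 transcripts, 17367 (94.8%) were matched to symbols through the RefSeq table of GRCr8, used for names and for the miRNA sequences. The other 954 held 2.02% to 3.62% of a library's counts and kept their identifiers. Estimated counts were summed per gene and rounded. Reads shared by similar transcripts were divided by kallisto's estimate. No deposited per-sample column was left unused because of its name (0 columns).

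Tests used edgeR 4.0.16 in R 4.3.3: the quasi-likelihood test with TMM scaling, the filterByExpr expression filter, and Benjamini-Hochberg adjustment over all genes tested, with a threshold of 0.05. The knockdown was tested within each compartment. A fit of all 8 libraries, with a single spread per gene, gave the 2 compartment comparisons and the difference between the knockdown effects. Intervals of log2 changes are 95% and use the test's SE. Ratios of counts have exact intervals for counting error only. CPM are per library total. The fits were tested on simulated counts with 200 changed genes.

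The 4 genes, the lists and the tests were chosen with earlier results of these data known. The rule named the 4 genes, Pum2, up to 3 genes of each list with the smallest unadjusted p in a comparison, and the 3 genes most like each of the 4. Alternatives were other size factors, total-count scaling, no expression filter, DESeq2 1.42.0, a replicate block, each library left out, and other sets of libraries in the fit. Some genes of the lists are counted in them but not reported by name here.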

Additional observations from a re-analysis of the deposited data

How the results depend on the processing

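None of the 4 genes passed the threshold in the somatic or the interaction comparison under the alternatives run, nor did axonal Cdkn1b and Mapk14, except that DESeq2 gave Cdkn1b no adjusted p. Axonal E2f3 and Atxn1 were below the filter and had an adjusted p only without the filter (0.9997 each) and in the fit of all 8 libraries (0.2956 and 0.7938, edgeR). Genes called in somatic RNA were 1 in the main test, 2 with DESeq2, 0 in a fit of all 8 libraries and 0 to 1 with a library left out. In axonal RNA they were 0, and 6 without an expression filter, 159 with DESeq2, 334 with both changes (added after seeing the data) and 0 to 4 with a library left out, the 4 without replicate 1 of axonal shPum2. In the interaction they were 0, and 609 with DESeq2 and 0 to 720 with a library left out: 720 without replicate 1 of axonal shControl and 281 without replicate 2 of axonal shPum2. Between compartments the count was 3046 (0 to 4906 with a library left out) with shPum2 and 3445 (0 to 5522) with shControl. It was 0 without either somatic library of the same hairpin. Under scaling by total counts 15.1% of the calls with shPum2 and 14.4% with shControl were higher in axons, beside 34.2% and 33.7%. Of the 4 genes, 0 were called with shPum2 (1 with DESeq2, 1 under total counts, 0 to 1 with a library left out) and 1 with shControl (2 with DESeq2, 3 under total counts, 0 to 3 with a library left out). The cause of these shifts was not tested.

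Signs turned for small differences. With a library left out, the somatic log2 difference ranged over -0.02 to 0.05 for E2f3 (0 in the fit of all 8), -0.01 to 0.11 for Cdkn1b, -0.19 to 0.11 for Atxn1 and -0.01 to 0.37 for Mapk14. The axonal one ranged over -3.76 to 0.31 for Cdkn1b, -1.77 to 0.77 for Mapk14 and -0.72 to 3.42 for Pum2, and the interaction over 2.50 to 9.34 for E2f3 (no change of sign), -4.02 to 0.35 for Cdkn1b and -2.13 to 0.66 for Mapk14. Between compartments Mapk14 ranged over -2.31 to 0.36 with shPum2 and -1.25 to 0.42 with shControl, and was 0.08 with shControl under DESeq2 and under its size factors. Where a group was left with 1 library, that library was assumed to vary like the other groups.

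Hairpin groups share replicate numbers, but the labels do not say what a number marks. Deviations of same-numbered libraries correlated at 0.72 in somatic and 0.11 in axonal RNA, and at 0.05 to 0.08 across compartments. With the replicate number as a block, the counts were 1 gene in somatic, 0 in axonal and 0 in the interaction comparison, and 2199 with shPum2 and 2370 with shControl between compartments. E2f3 with shControl was at -7.00 (adjusted p = 0.0722, edgeR), so 0 of the 4 genes were called there. Levels from single transcripts give no separate value, as each gene had 1 transcript. Axonal E2f3 and Atxn1 had 0 to 42 counts a library, which limits the precision of their values.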

Other observations

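The other genes described elsewhere as Pumilio targets can also be set between compartments. Of the 7 tested, none was called with either hairpin (edgeR), and 3 had a positive axonal over somatic difference with shPum2 and 4 with shControl. Eif4e, the cap-binding initiation factor, stood at 97.3 and 126 CPM in axonal and 117 and 118 CPM in somatic libraries with shPum2. With shControl Eif4e stood at 48.8 and 102 CPM in axonal and 109 and 112 CPM in somatic libraries. The sign depended on the scaling: in CPM, the axonal mean of Eif4e lay below its somatic mean with either hairpin. Under TMM scaling, Eif4e differed by a log2 change of 1.53 (SE 0.56, adjusted p = 0.0980) with shPum2 and 1.02 (SE 0.56, adjusted p = 0.2129) with shControl, by edgeR with Benjamini-Hochberg adjustment. Its axonal replicates lay closer together than those of Cdkn1b, Mapk14 and E2f3.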
